A study of Mus musculus with 8 samples.

Results

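Recurrence after cisplatin (CDDP) was compared with the untreated state in mouse adult fibroblasts (MAFs), and the genes whose difference ran the same way in RB-proficient and in RB-deficient cells are described here. Expression in 4 populations was measured on Affymetrix arrays of the mouse genome, with 2 biological replicates per population and 8 arrays in all. The difference between the 4 recurred and the 4 naïve arrays was estimated on the deposited log2 RMA signals with RB status as a covariate. A gene was taken as shared when the sign of its recurrence difference, computed separately in each genotype, was the same, and this held for 8541 of 18193 measured genes. A closer set of shared changes was defined by a difference of 1.5-fold or more in each genotype with no overlap between recurred and naïve arrays of that genotype. It held 110 probe sets under 79 gene symbols, and for 63 genes it held the brightest probe set, which stands for the gene in the counts below.

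The MAFs came from the peritoneal fascia of mice with a floxed Rb1 gene. All 4 populations carried p53DD, a dominant negative fragment of p53 delivered by an LXSN retrovirus, so p53 function was blocked in the controls as well. GFP Naïve cells had received an adenovirus for GFP and kept RB. Cre Naïve cells had received an adenovirus for GFP-Cre, which removed the floxed part of Rb1. The recurred counterparts of both, GFP Recurred and Cre Recurred, had been exposed to CDDP for 24 h and had then regrown in fresh media. Independently generated populations, 2 or more, stand behind each group by the study's methods. In bulk RNA, fewer cells that express a gene and less RNA of it per cell cannot be told apart.

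Cisplatin binds purines and links neighbouring or opposite bases, which stalls replication and transcription and calls for excision and crosslink repair. Cells that survive a pulse of the drug resume division, and the culture that grows out descends from the survivors. Fibroblasts secrete matrix, proteases and chemokines, and NF-kappa B drives many of the chemokine genes when cells are stressed. RB holds back E2F target genes in G1, and genes of DNA replication and the cell cycle are among them. The study found only modest changes, not significant by its thresholds, between untreated p53DD cells with and without RB.

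The arrays had similar scales, with medians from 5.37 to 5.41 on the log2 scale. The level of Rb1 was 7.98 and 8.07 in the GFP Naïve arrays and 8.21 and 8.78 in the GFP Recurred arrays, and 6.21, 5.72, 4.98 and 5.45 in the Cre arrays, so it was lower in all 4 Cre arrays than in all 4 GFP arrays. Of 20 fibroblast markers, 17 had a mean level above 8, against 0 of 17 keratinocyte and epithelial markers, 1 of 19 macrophage and leukocyte markers and 1 of 17 endothelial markers. The mean level was also above 8 for 2 of 14 mesothelial, 2 of 10 adipocyte and 3 of 17 muscle markers. Of 10 Schwann and neural crest markers, 1 was above 8. Arrays of one population did not always lie closest to each other. Cre Naïve replicate 1 correlated best with GFP Naïve replicate 1 (r = 0.994 across probe sets), and Cre Naïve replicate 2 correlated best with Cre Recurred replicate 2 (r = 0.992), above its own replicate (r = 0.985). GFP Naïve replicate 1 was above replicate 2 in 70 of the 88 shared lower probe sets, with a median gap of 0.73, while over all probe sets it was above in 46.3%. Cre Naïve replicate 1 was above its replicate in 60 of the 88, with a median gap of 0.55. For the same probe sets the median size of the gap between replicates was 0.77 and 0.72 in GFP and Cre Naïve cells. In GFP and Cre Recurred cells it was 0.22 and 0.25. Over all probe sets it was 0.19 in both naïve populations and 0.14 and 0.18 in the recurred ones. The 88 were selected on these same values, and a high naïve array helps a lower probe set to pass. Their wider naïve spread is therefore no separate result, and its part in the results was not tested. Without GFP Naïve replicate 1, 160 probe sets met the shared rule and 66 of them were among the 110. Without Cre Naïve replicate 1, 147 met it and 85 were among the 110, and without Cre Naïve replicate 2, 192 and 101.

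No gene passed as a shared change in the fit across all probe sets. Of 45037 probe sets tested with limma, 0 (0%) reached 1.5-fold with an adjusted p under 0.25, the study's thresholds, and 0 (0%) did so with an adjusted p under 0.05. The smallest adjusted p was 0.659. At an unadjusted p under 0.05 there were 3011 probe sets. With 1.5-fold and the same sign in both genotypes as well, 79 were higher (0.175% of those tested) and 306 were lower (0.679%). A SAM-type statistic, which permutes recurred and naïve labels within each genotype, called 1 probe set, which has no gene symbol. A fit with a mean for each population, which takes the interaction with RB status out of the residual spread, called 22 probe sets at 1.5-fold and an adjusted p under 0.25, of which 8 were higher and 14 lower, but 0 at an adjusted p under 0.05. These included both probe sets of Gata2 and 2 of Rgs4. A permutation test of a single gene within genotype has 36 arrangements and cannot give a two-sided p below 0.0556. The values below are therefore descriptions of 8 arrays, and no named gene had an adjusted p below 0.741 for the recurrence difference in limma. The shared probe sets were selected on these same values, and all 110 of them had an unadjusted p under 0.05 in limma. The unadjusted p values given below for shared genes are therefore no separate support.

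Sharing was less common than opposition among large differences. Across all probe sets the recurrence difference had the same sign in both genotypes for 47.5%, and the GFP and Cre differences, which share no array, correlated at r = -0.23 (Pearson, across 45037 probe sets, a description with no test). Among the brighter 22518 probe sets, those above the median of the mean signals, the correlation was -0.34. Of the 906 probe sets that differed by 1.5-fold or more in both genotypes, 216 went the same way and 690 went opposite ways. The correlation was -0.087 without GFP Naïve replicate 2 and -0.10 without Cre Recurred replicate 1, and it was between -0.30 and -0.20 without each of the other arrays. Of the 110 shared probe sets without overlap, 22 were higher (0.0488% of those tested) and 88 were lower (0.195%) after recurrence. In 62 of them, 16 higher and 46 lower, all 4 recurred arrays lay beyond all 4 naïve arrays. Among all 45037 probe sets 1445 lay fully above and 567 fully below, and 32 and 83 of these reached 1.5-fold over both genotypes. The difference was larger in Cre cells in 71 of the 110. Larger differences in Cre cells were general, with 3474 of all probe sets at 1.5-fold or more in Cre cells and 1988 in GFP cells. The interaction with RB status had an adjusted p under 0.25 in limma for 2 of the 110, Rgs4 and Rbp4, and under 0.05 for 0, with 8 at an unadjusted p under 0.05.

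**Figure D1:**
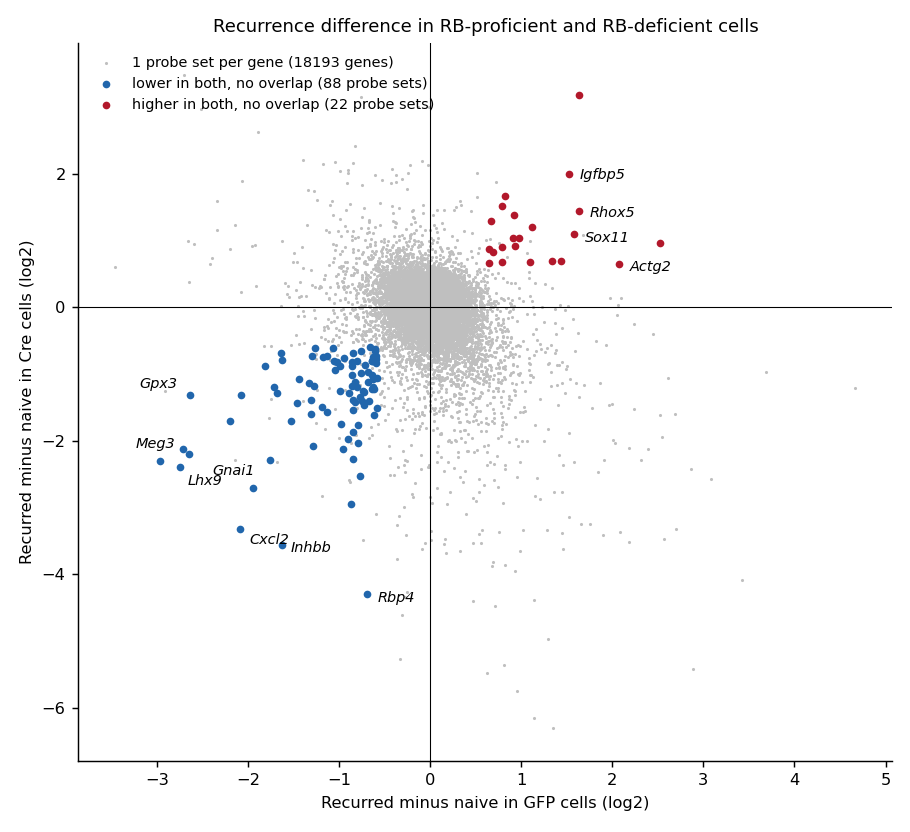
Recurred minus naïve difference (log2) in GFP cells on the x axis and in Cre cells on the y axis. Grey points are the 18193 genes, 1 probe set each. Blue points are the 88 shared lower and red points the 22 shared higher probe sets. The grey cloud leans towards the quadrants of opposite sign (r = -0.23 across probe sets), and the lower left holds more shared points than the upper right.

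Chemokines of the CXC family that attract neutrophils were lower after recurrence in both genotypes. Cxcl1, Cxcl2 and Cxcl3 lie in 1 cluster on chromosome 5 and encode ligands of CXCR2. The promoters of the 3 genes are shown because the genes moved together and because each holds the same stretch that matches a kappa B motif. The sequences are RefSeq's for GRCm38.p6, on the plus strand and 5′ to 3′, from 250 bases before the start of the gene to 50 after it. Capitals mark the match to GGGANNTTC, which was searched on both strands, and the matches on the 2 strands overlap in each promoter.
Cxcl1, chr5:90890995-90891294: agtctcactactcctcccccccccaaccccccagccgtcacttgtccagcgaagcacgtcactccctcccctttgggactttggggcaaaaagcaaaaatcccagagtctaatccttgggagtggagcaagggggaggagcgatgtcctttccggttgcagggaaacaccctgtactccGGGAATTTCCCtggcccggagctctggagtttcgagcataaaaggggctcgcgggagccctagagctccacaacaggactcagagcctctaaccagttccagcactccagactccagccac
Cxcl2, chr5:90903649-90903948: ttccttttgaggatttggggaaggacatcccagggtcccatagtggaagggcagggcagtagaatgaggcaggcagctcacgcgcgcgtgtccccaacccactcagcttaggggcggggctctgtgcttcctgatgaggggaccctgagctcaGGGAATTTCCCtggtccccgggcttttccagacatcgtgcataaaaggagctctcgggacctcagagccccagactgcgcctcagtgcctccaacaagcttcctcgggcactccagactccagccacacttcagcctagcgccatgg
Cxcl3, chr5:90785851-90786150: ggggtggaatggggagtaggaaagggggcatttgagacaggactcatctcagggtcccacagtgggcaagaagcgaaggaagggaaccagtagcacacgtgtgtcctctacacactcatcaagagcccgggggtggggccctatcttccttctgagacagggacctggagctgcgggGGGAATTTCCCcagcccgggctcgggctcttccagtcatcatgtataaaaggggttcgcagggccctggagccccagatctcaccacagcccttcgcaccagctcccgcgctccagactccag

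The capitals read GGGAATTTCCC in all 3 promoters and begin 71 bases before the start of Cxcl1, 97 before that of Cxcl2 and 73 before that of Cxcl3. The motif was found in 3.94% of all 32851 promoters, and the stretch of 11 bases in 0.0426%. Counted by gene, 4.47% of 27025 genes with a promoter held it. Of 58 shared genes with a promoter in the table, 6 held the motif (10.3%). Cxcl1, Cxcl2 and Cxcl3, which lie in 1 cluster, were 3 of the 6, and the others were Gata2, Als2cl and Dglucy. The 3 chemokine promoters were shown in part for this match, so the share is no separate result. A match describes letters in this window and is no measurement of binding.

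Cxcl2 had a level of 8.33 and 5.69 in the GFP Naïve arrays, 8.63 and 5.77 in the Cre Naïve arrays, 5.37 and 4.47 in the GFP Recurred arrays, and 4.28 and 3.47 in the Cre Recurred arrays. All 4 recurred arrays were below all 4 naïve arrays, and in both genotypes replicate 1 of the naïve cells stood far above replicate 2. The difference was -2.09 in GFP cells and -3.33 in Cre cells, or 4.26-fold and 10.0-fold, and -2.71 ± 0.76 (SE) over both (limma, unadjusted p = 0.00793). Cxcl3 showed the same order of replicates, at 5.79 and 2.86 in the GFP Naïve arrays, 6.92 and 4.40 in the Cre Naïve arrays, 2.38 and 2.37 in the GFP Recurred arrays, and 2.97 and 2.95 in the Cre Recurred arrays. Its recurred arrays lay close together near the low end of the scale, and its GFP Naïve replicate 2 was lower than the Cre Recurred arrays, so the genotypes separated only within themselves. The difference of Cxcl3 was -2.33 ± 0.71 (SE), and -1.82 without GFP Naïve replicate 1. Cxcl1 was far brighter, at 12.67 and 11.86 in the GFP Naïve arrays, 12.21 and 11.51 in the Cre Naïve arrays, 11.03 and 11.51 in the GFP Recurred arrays, and 11.09 and 10.86 in the Cre Recurred arrays. Its arrays did not overlap within either genotype, and GFP Recurred replicate 2 equalled Cre Naïve replicate 2 to the second decimal. Its 3 probe sets gave differences from -0.94 to -0.85. Cxcl5, which encodes another CXCR2 ligand, differed by -0.56 in GFP cells and -0.63 in Cre cells, just under the 1.5-fold limit in GFP cells. Ptx3, the gene of a pentraxin that binds microbes and complement and is induced by the same inflammatory signals, was at 12.37 and 11.97 in the GFP Naïve arrays, 11.70 and 11.08 in the Cre Naïve arrays, 11.02 and 11.52 in the GFP Recurred arrays, and 8.86 and 9.99 in the Cre Recurred arrays. Its Cre Recurred arrays were the lowest of the 8, and the difference was -0.90 in GFP cells and -1.97 in Cre cells. A second, dimmer probe set of Ptx3 differed by -0.29 over both genotypes.

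In the list of secreted chemokines, cytokines and growth factors, 16 of 57 measured genes were lower in both genotypes and 5 were higher, while over all genes 18.5% were lower in both and 28.5% higher. These 2 shares are the background of every such list below. The list's median difference was 0.02 in GFP cells and -0.41 in Cre cells, beside 0.01 and 0.05 over all genes. The medians moved with single arrays, to -0.83 in Cre cells without Cre Naïve replicate 2 and to -0.08 in GFP cells without GFP Recurred replicate 2, and with 1 array left out between 12 and 20 genes were lower in both. Of the 51 shared lower genes, 3 were in this list, Cxcl1, Cxcl2 and Inhbb.

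Inhbb and Fst, which both bear on activins, were lower as well, while Acvr2b, an activin receptor gene, differed by 0.18 in GFP cells and 0.32 in Cre cells. Inhbb encodes the beta B subunit of activins and inhibins, and it stood at 8.97 and 8.46 in the GFP Naïve arrays, 8.83 and 7.44 in the Cre Naïve arrays, 7.05 and 7.13 in the GFP Recurred arrays, and 3.94 and 5.21 in the Cre Recurred arrays. All recurred arrays were below all naïve arrays, with Cre Recurred far below the rest. The difference was -1.63 in GFP cells and -3.57 in Cre cells, or 3.09-fold and 11.8-fold, and -2.60 ± 0.50 (SE) over both (limma, unadjusted p = 0.000874). A second, dimmer probe set of Inhbb differed by -0.08 only. Fst encodes follistatin, which binds activins and keeps them from their receptors. Its probe set in the shared group had a level of 8.56 and 6.31 in the GFP Naïve arrays, 7.42 and 7.58 in the Cre Naïve arrays, 6.27 and 6.22 in the GFP Recurred arrays, and 6.05 and 5.96 in the Cre Recurred arrays, and GFP Naïve replicate 1 was highest while GFP Naïve replicate 2 lay just above the recurred arrays. The difference was -1.34 ± 0.41 (SE), -0.93 without GFP Naïve replicate 1 and -1.82 without GFP Naïve replicate 2. Without the latter array both probe sets of Fst passed the study's thresholds, with an adjusted p of 0.236 and 0.0688 in limma. In the list of TGF-beta and BMP pathway genes, 12 of 41 were lower in both genotypes and 5 were higher, or 10 to 17 and 3 to 7 with 1 array left out. Bambi, which encodes a decoy receptor of this family, differed by -0.12 in GFP cells and -0.85 in Cre cells, and by -0.30 over both in place of -0.49 without Cre Naïve replicate 1.

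Gnai1, Rgs4, Adcy3, Ptgir and Prkg1 are described side by side because their products act in G protein or cyclic nucleotide signalling, and no list of such genes was counted. Gnai1 encodes an inhibitory alpha subunit that restrains adenylyl cyclase, and its level was 8.67 and 7.24 in the GFP Naïve arrays, 7.86 and 9.24 in the Cre Naïve arrays, 6.17 and 6.23 in the GFP Recurred arrays, and 6.04 and 6.48 in the Cre Recurred arrays. The recurred arrays lay between 6.04 and 6.48, below all naïve arrays. The difference was -1.76 in GFP cells and -2.29 in Cre cells, or 3.39-fold and 4.89-fold, and -2.03 ± 0.38 (SE) over both (limma, unadjusted p = 0.000803). Of 3 Gnai1 probe sets 2 met the shared rule, and the differences ran from -2.03 to -0.36. Rgs4, whose product speeds the return of G proteins to the inactive state, was at 8.81 and 8.96 in the GFP Naïve arrays, 7.92 and 8.18 in the Cre Naïve arrays, 7.97 and 8.25 in the GFP Recurred arrays, and 5.36 and 5.68 in the Cre Recurred arrays. Its replicates agreed closely in each population, and the Cre Recurred arrays stood apart below all others. The difference was -0.77 in GFP cells and -2.53 in Cre cells, and the test of the difference between genotypes gave an adjusted p of 0.175 in limma. Adcy3, an adenylyl cyclase gene, differed by -0.80 in GFP cells and -1.76 in Cre cells. Of 4 Adcy3 probe sets 2 met the shared rule and all 4 were lower in both genotypes, with differences from -1.28 to -0.26. Ptgir, the gene of the prostacyclin receptor, differed by -0.98 in GFP cells and -1.75 in Cre cells, with all recurred arrays below all naïve arrays. Prkg1, the gene of a kinase activated by cyclic GMP, differed by -0.59 in GFP cells and -1.51 in Cre cells, just past that limit in GFP cells.

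**Figure D2:**
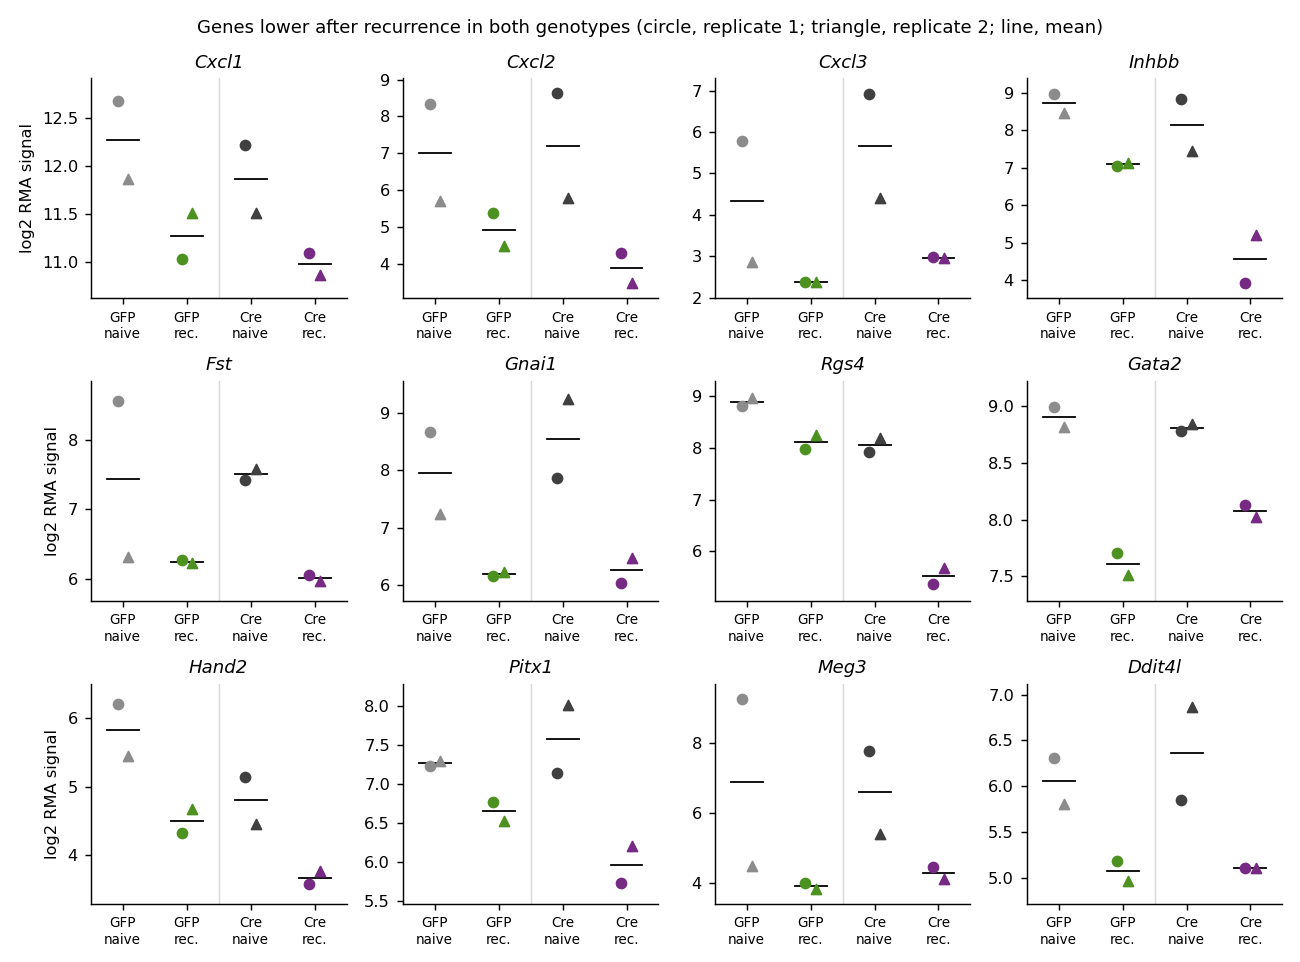
Log2 RMA signal of 12 genes that were lower after recurrence in both genotypes, 1 panel per gene with its own scale. Circles are replicate 1, triangles replicate 2 and lines the mean of 2 arrays. Rgs4 and Gata2 have close replicates, while the naïve arrays of Cxcl2, Cxcl3, Fst and Meg3 spread widely. The recurred arrays of Cxcl3, Fst and Meg3 lie together, and those of Cxcl2 run from 3.47 to 5.37.

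Among the lower genes that encode transcription factors were Gata2, Pitx1, Hand2, Lhx9, Ebf2 and Rarb, most of them named after their values were seen. In the list of Hox genes, the one such list that was fixed, 8 of 33 were higher in both genotypes and 11 were lower. Gata2, a zinc finger factor of blood, endothelial and fat precursors, was the gene with the tightest replicates among them, at 8.99 and 8.82 in the GFP Naïve arrays, 8.78 and 8.84 in the Cre Naïve arrays, 7.70 and 7.51 in the GFP Recurred arrays, and 8.13 and 8.02 in the Cre Recurred arrays. The 4 naïve arrays lay between 8.78 and 8.99, and all recurred arrays were below them. The difference was -1.30 in GFP cells and -0.73 in Cre cells, or 2.47-fold and 1.66-fold, and -1.02 ± 0.13 (SE) over both (limma, unadjusted p = 7.56e-05). Pitx1, a homeodomain factor of the hindlimb, was at 7.23 and 7.29 in the GFP Naïve arrays, 7.14 and 8.01 in the Cre Naïve arrays, 6.76 and 6.52 in the GFP Recurred arrays, and 5.72 and 6.19 in the Cre Recurred arrays. Its 8 arrays separated fully by state, and both of its probe sets met the shared rule. Hand2, a basic helix-loop-helix factor of limb and heart, was at 6.22 and 5.45 in the GFP Naïve arrays, 5.14 and 4.46 in the Cre Naïve arrays, 4.33 and 4.67 in the GFP Recurred arrays, and 3.57 and 3.77 in the Cre Recurred arrays, so the Cre Naïve arrays overlapped the GFP Recurred arrays and the states separated only within a genotype. The difference of Hand2 was -1.33 in GFP cells and -1.13 in Cre cells. Of 3 Hand2 probe sets 1 met the rule, 2 were lower in both genotypes and 1 was higher, with differences from -1.23 to 0.17. Lhx9, a LIM homeodomain factor of limb and gonad, had the largest difference among these transcription factor genes. At the shared probe set where it was largest the gene had a level of 7.44 and 4.04 in the GFP Naïve arrays, 6.10 and 5.06 in the Cre Naïve arrays, 3.01 and 2.97 in the GFP Recurred arrays, and 3.35 and 3.02 in the Cre Recurred arrays. GFP Naïve replicate 1 was highest, and the recurred arrays lay between 2.97 and 3.35. The difference was -2.57 ± 0.65 (SE) and -1.86 without GFP Naïve replicate 1. Of 4 Lhx9 probe sets 3 met the rule. The brightest of these 3 differed by -2.42, with GFP Naïve replicate 2 at 4.41 and Cre Recurred replicate 1 at 4.47, so its states separated only within a genotype, and the brightest of all 4 differed by -0.31. Ebf2, a factor of fat and muscle precursors, differed by -1.72 in GFP cells and -1.19 in Cre cells, and Rarb, a retinoic acid receptor gene, by -1.64 in GFP cells and -0.69 in Cre cells. For these 2 genes GFP Naïve replicate 1 was the highest of the 8 arrays, and without it the differences were -0.88 for Ebf2 and -0.63 for Rarb. Of 3 Ebf2 probe sets 1 met the rule, and the differences ran from -1.45 to -0.35.

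Meg3, an imprinted long noncoding RNA that is expressed from the maternal chromosome, had the largest shared reduction in GFP cells. At its leading probe set the level was 9.26 and 4.51 in the GFP Naïve arrays, 7.79 and 5.41 in the Cre Naïve arrays, 4.01 and 3.84 in the GFP Recurred arrays, and 4.47 and 4.14 in the Cre Recurred arrays. The recurred arrays were all below the naïve arrays, but the GFP Naïve replicates differed from each other by more than the states did in either genotype. The difference was -2.96 in GFP cells and -2.30 in Cre cells, or 7.79-fold and 4.91-fold, and it was -1.61 over both genotypes without GFP Naïve replicate 1. Of 11 Meg3 probe sets, 5 were lower in both genotypes, 2 were higher in both and 4 went opposite ways, with differences from -2.63 to 0.19. Of 34 imprinted genes, 7 were lower in both genotypes and 11 were higher.

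Other lower genes encode enzymes, a stress-induced inhibitor and a linker histone. Gpx3, the gene of the secreted glutathione peroxidase, was at 9.88 and 6.08 in the GFP Naïve arrays, 7.63 and 6.28 in the Cre Naïve arrays, 5.42 and 5.27 in the GFP Recurred arrays, and 5.41 and 5.86 in the Cre Recurred arrays. The difference was -2.63 in GFP cells and -1.32 in Cre cells and rested in part on GFP Naïve replicate 1, without which it was -1.09 over both genotypes. Smpdl3a, a phosphodiesterase gene related to acid sphingomyelinase, behaved alike in these arrays, with -2.19 in GFP cells and -1.71 in Cre cells and -1.17 over both without that array. Pygl, the liver form of glycogen phosphorylase, differed by -2.08 in GFP cells and -1.32 in Cre cells, and by -1.12 over both in place of -1.70 without that array. Ddit4l, the gene of a stress-induced inhibitor of mTOR signalling, had closer replicates, at 6.31 and 5.81 in the GFP Naïve arrays, 5.85 and 6.87 in the Cre Naïve arrays, 5.18 and 4.96 in the GFP Recurred arrays, and 5.10 and 5.10 in the Cre Recurred arrays. All 4 recurred arrays of Ddit4l lay between 4.96 and 5.18, below the naïve arrays, and its 3 probe sets gave differences from -1.35 to -0.92. H1f10, a linker histone gene, was at 7.91 and 8.17 in the GFP Naïve arrays, 7.96 and 8.57 in the Cre Naïve arrays, 7.33 and 7.14 in the GFP Recurred arrays, and 7.14 and 7.01 in the Cre Recurred arrays. Its states separated fully, with a difference of -0.997 ± 0.16 (SE) (limma, unadjusted p = 0.000279).

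Rbp4 and Smoc2 were shared in direction with a much larger difference in Cre cells. Rbp4 encodes the retinol carrier of plasma, and its level was 7.98 and 7.37 in the GFP Naïve arrays, 7.84 and 8.13 in the Cre Naïve arrays, 6.61 and 7.35 in the GFP Recurred arrays, and 3.25 and 4.12 in the Cre Recurred arrays. The Cre Recurred arrays were far below every other array, and GFP Recurred replicate 2 was just below GFP Naïve replicate 2. The difference was -0.70 in GFP cells and -4.30 in Cre cells, and the interaction had an adjusted p of 0.177 in limma. Smoc2, which encodes a matricellular calcium-binding protein, differed by -0.87 in GFP cells and -2.95 in Cre cells. Mapk13, the gene of the delta form of p38 kinase, differed by -0.85 in GFP cells and -2.27 in Cre cells, and by -1.03 over both in place of -1.56 without Cre Naïve replicate 1. Rcan2, a calcineurin regulator gene, differed by -0.79 in GFP cells and -2.03 in Cre cells. In the matrix protease list 6 of 28 genes were lower in both genotypes and 4 were higher, close to the 18.5% of all genes for the lower ones. All 6 reached 1.5-fold over both genotypes with an unadjusted p under 0.05 in limma. Of all 18193 genes, 167 did so in this direction. Among the 6 were the aggrecanase genes Adamts5 with -1.53 in GFP cells and -0.57 in Cre cells and Adamts9 with -0.72 in GFP cells and -0.87 in Cre cells. Adamts1 differed by -1.47 in GFP cells and -0.41 in Cre cells, and Mmp16, a membrane-type metalloproteinase gene, by -0.98 in GFP cells and -0.51 in Cre cells. Without GFP Naïve replicate 1 the difference over both genotypes was -0.38 in place of -0.75 for Mmp16 and -0.70 in place of -1.05 for Adamts5.

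Of the genes that were higher after recurrence at their brightest probe set, Rhox5 came first when ordered by the smaller of the GFP and Cre differences. Rhox5 is an X-linked homeobox gene of the reproductive tract and germline that is kept silent by DNA methylation in most somatic cells. Its level was 5.23 and 6.21 in the GFP Naïve arrays, 5.59 and 6.71 in the Cre Naïve arrays, 7.24 and 7.47 in the GFP Recurred arrays, and 7.499 and 7.68 in the Cre Recurred arrays. All 4 recurred arrays were above all 4 naïve arrays, and the recurred arrays lay close together, from 7.24 to 7.68. The difference was 1.63 in GFP cells and 1.44 in Cre cells, or 3.10-fold and 2.71-fold, and 1.54 ± 0.28 (SE) over both (limma, unadjusted p = 0.000681). Of 27 germline and pluripotency genes, 8 were higher in both genotypes, 7 were lower in both and Rhox5 alone met the shared rule. Of 33 genes of DNA methylation and chromatin silencing, 6 were higher in both and 7 were lower, with 11 higher without Cre Recurred replicate 1.

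Sox11 and Onecut2 encode transcription factors. Sox11, an HMG box factor of neural progenitors, was at 4.69 and 5.36 in the GFP Naïve arrays, 5.15 and 6.91 in the Cre Naïve arrays, 6.48 and 6.73 in the GFP Recurred arrays, and 7.09 and 7.16 in the Cre Recurred arrays, and Cre Naïve replicate 2 overlapped the GFP Recurred arrays. The difference was 1.58 in GFP cells and 1.09 in Cre cells, and 6 of 6 Sox11 probe sets were higher in both genotypes, with differences from 0.41 to 1.34. Onecut2, a cut homeodomain factor, was at 3.84 and 3.70 in the GFP Naïve arrays, 4.11 and 4.02 in the Cre Naïve arrays, 4.59 and 4.52 in the GFP Recurred arrays, and 4.60 and 5.32 in the Cre Recurred arrays, where all recurred arrays were above all naïve arrays. The difference of Onecut2 was 0.79 in GFP cells and 0.90 in Cre cells, and its 3 probe sets gave 0.72 to 0.90. Zcchc18, the gene of a zinc finger protein, differed by 1.10 in GFP cells and 0.67 in Cre cells, again with full separation of the states. St8sia4, the gene of a polysialyltransferase that modifies the neural adhesion molecule NCAM, differed by 0.97 in GFP cells and 1.04 in Cre cells. A second, dimmer probe set of St8sia4 differed by 0.11 over both genotypes. Tspoap1, which encodes a scaffold protein of presynaptic terminals, was at 5.22 and 5.02 in the GFP Naïve arrays, 5.14 and 5.33 in the Cre Naïve arrays, 5.75 and 6.34 in the GFP Recurred arrays, and 6.38 and 6.86 in the Cre Recurred arrays. Its states separated fully, and the difference was 1.15 ± 0.18 (SE) (limma, unadjusted p = 0.000237). Nos1, the gene of neuronal nitric oxide synthase, met the rule at 1 of 4 probe sets with 0.67 in GFP cells and 1.29 in Cre cells. Of 10 Schwann and neural crest markers, 9 were higher in both genotypes and 0 lower, with medians of 0.12 in GFP cells and 0.27 in Cre cells. The summed level of this marker list ran from 10.6 to 11.6 in the naïve arrays and from 10.4 to 11.6 in the recurred arrays, and its part in these values was not tested. Only 1 of the 10 markers had a mean level above 8. Other lists of mostly dim markers varied. Of 17 keratinocyte and epithelial markers 11 were higher in both and 3 lower, and of 17 endothelial markers 7 and 1. Of 19 macrophage and leukocyte markers 7 were higher and 5 lower, and of 17 muscle markers 3 and 5.

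In the list of interferon response genes 16 of 48 were higher in both genotypes, near the 28.5% of all genes, and 3 were lower. Oas1a, which senses double-stranded RNA, was at 9.02 and 8.73 in the GFP Naïve arrays, 8.36 and 7.62 in the Cre Naïve arrays, 9.58 and 10.41 in the GFP Recurred arrays, and 9.54 and 8.84 in the Cre Recurred arrays. GFP Naïve replicate 1 was above Cre Recurred replicate 2, so the states separated within each genotype only. The difference was 1.12 in GFP cells and 1.202 in Cre cells and 1.16 ± 0.25 (SE) over both (limma, unadjusted p = 0.00189). Sp100, a nuclear body protein, differed by 0.79 in GFP cells and 1.52 in Cre cells at its brighter probe set, and its second probe set met the rule as well. Trim30a differed by 1.09 in GFP cells and 0.99 in Cre cells, Isg20 by 0.56 in GFP cells and 0.40 in Cre cells and Oas3 by 0.61 in GFP cells and 0.49 in Cre cells, and of these 3 only Oas3 had all recurred arrays above all naïve arrays. The list's median was 0.32 in GFP cells and -0.01 in Cre cells, and it depended on single arrays. In GFP cells it was -0.06 without GFP Naïve replicate 2 and 0.79 without GFP Naïve replicate 1, and 11 and 20 genes respectively were higher in both genotypes. Over all arrays left out in turn, 11 to 24 were higher in both and 1 to 13 lower.

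**Figure D3:**
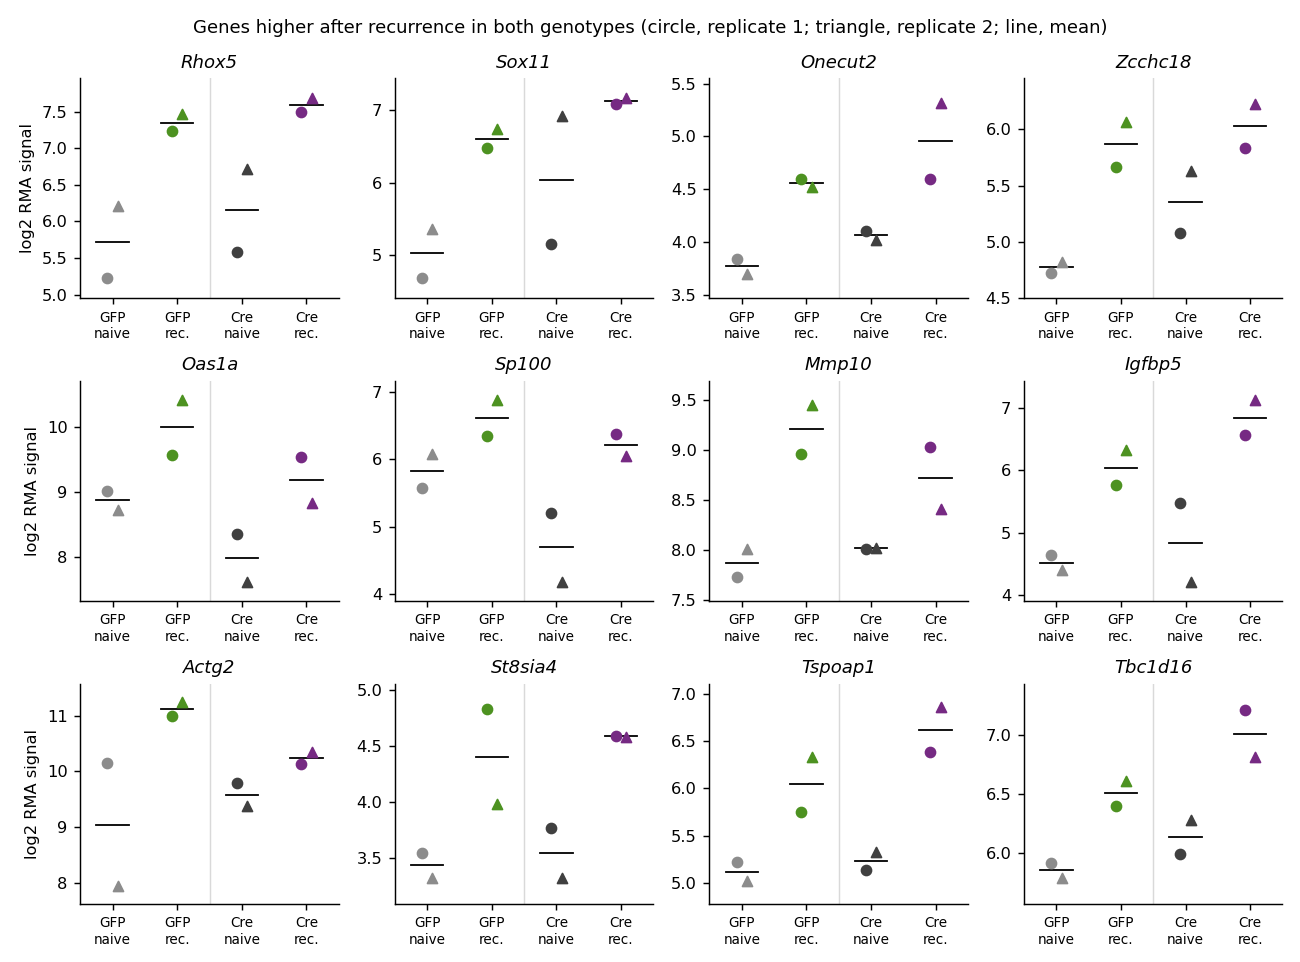
Log2 RMA signal of 12 genes that were higher after recurrence in both genotypes, drawn as in the panels of lower genes. The 4 recurred arrays of Rhox5, Onecut2, Zcchc18, Mmp10, Igfbp5, St8sia4, Tspoap1 and Tbc1d16 lie above all 4 naïve arrays, whereas naïve and recurred arrays of Sox11, Oas1a, Sp100 and Actg2 overlap across genotypes.

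Further higher genes encode a matrix protease, a growth factor-binding protein and contractile proteins. Mmp10, the gene of stromelysin-2, was at 7.73 and 8.01 in the GFP Naïve arrays, 8.01 and 8.02 in the Cre Naïve arrays, 8.97 and 9.45 in the GFP Recurred arrays, and 9.03 and 8.41 in the Cre Recurred arrays. All recurred arrays were above the naïve arrays, in contrast to the lower proteases above, and the difference was 1.34 in GFP cells and 0.70 in Cre cells. Igfbp5, which encodes a binding protein of insulin-like growth factors, was at 4.65 and 4.40 in the GFP Naïve arrays, 5.48 and 4.21 in the Cre Naïve arrays, 5.77 and 6.32 in the GFP Recurred arrays, and 6.56 and 7.13 in the Cre Recurred arrays at 1 of its 2 probe sets. The difference there was 1.76 ± 0.29 (SE) (limma, unadjusted p = 0.00036), whereas the brighter probe set differed by 0.12. The genes of the main basement membrane collagen, Col4a1 and Col4a2, differed by 0.43 in GFP cells and 0.28 in Cre cells and by 0.37 in GFP cells and 0.61 in Cre cells, within 13 of 35 collagen genes that were higher in both genotypes, or 21 without Cre Recurred replicate 1. Actg2, the gamma actin of smooth muscle, was at 10.15 and 7.95 in the GFP Naïve arrays, 9.79 and 9.38 in the Cre Naïve arrays, 10.995 and 11.25 in the GFP Recurred arrays, and 10.13 and 10.34 in the Cre Recurred arrays. GFP Naïve replicate 2 was the lowest array, and without it the difference over both genotypes was 0.78 in place of 1.36. Acta1, the actin of skeletal muscle, differed by 0.45 in GFP cells and 0.84 in Cre cells, and all of its recurred arrays were above its naïve arrays. Of 17 muscle markers, a list that holds both actins, 3 were higher in both genotypes and 5 were lower in both. The summed level of this list, in which bright genes weigh most, ran from 11.6 to 12.1 in the naïve arrays. It ran from 11.998 to 12.4 in the recurred arrays, and its part was not tested. Pla2g7, the gene of an enzyme that degrades platelet-activating factor, was at 5.90 and 4.49 in the GFP Naïve arrays, 5.40 and 6.71 in the Cre Naïve arrays, 5.91 and 6.14 in the GFP Recurred arrays, and 7.42 and 8.03 in the Cre Recurred arrays. Cre Recurred arrays were highest, and GFP Naïve replicate 1 was just below GFP Recurred replicate 1. Tbc1d16, a Rab GTPase activator gene, differed by 0.65 in GFP cells and 0.87 in Cre cells, with full separation.

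Cisplatin damages DNA, so repair and p53 target genes were looked at as lists. Of 45 genes of crosslink and excision repair, 9 were higher in both genotypes and 12 were lower. At 1.5-fold and an unadjusted p under 0.05 in limma in the same direction there were 0. Of all 18193 genes, 42 higher and 167 lower ones passed that limit, so a count of 0 in 45 genes says little. Ercc5, the gene of the XPG nuclease, differed by -0.36 in GFP cells and -0.29 in Cre cells. Of 35 genes of platinum transport, metallothioneins and glutathione, 7 were higher in both and 11 were lower, or 3 to 9 and 6 to 11 with 1 array left out. Of 29 p53 targets, 10 were lower in both genotypes and 1 was higher, with medians of -0.14 in GFP cells and -0.21 in Cre cells. The Cre median was 0.002 without Cre Naïve replicate 2, and then 5 were lower in both, while it was -0.08 without Cre Recurred replicate 1. Ephx1, a gene of epoxide detoxification that is also in the Nrf2 list, was at 10.03 and 9.89 in the GFP Naïve arrays, 10.02 and 9.24 in the Cre Naïve arrays, 9.23 and 8.66 in the GFP Recurred arrays, and 8.997 and 9.13 in the Cre Recurred arrays, and its states separated fully though narrowly. Ccng1, the cyclin G1 gene, differed by -0.61 in GFP cells and -0.27 in Cre cells, and Cdkn1a, the gene of the cyclin-dependent kinase inhibitor p21, by -0.54 in GFP cells and -0.28 in Cre cells. Cdkn1a overlapped between states in both genotypes, and its difference over both, -0.41, was -0.18 without GFP Naïve replicate 2 and -0.22 without GFP Recurred replicate 1. A dimmer Cdkn1a probe set differed by -0.67 in GFP cells and 0.16 in Cre cells. Of 3 Ccng1 probe sets 2 were lower in both genotypes, and another differed by -0.77 in GFP cells and 0.02 in Cre cells.

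Heat shock chaperones had 10 of 31 genes lower in both genotypes and 1 higher. Hspb1 differed by -0.36 in GFP cells and -1.01 in Cre cells, Hspa1b by -0.31 in GFP cells and -1.002 in Cre cells and Dnaja4 by -0.25 in GFP cells and -2.30 in Cre cells, so most of each difference lay in the Cre cells. Glycolysis and hypoxia response genes had 10 of 28 lower in both and 1 higher. Without GFP Naïve replicate 1 or Cre Naïve replicate 1, 15 were lower in both, and without GFP Naïve replicate 2, 6 were lower and 4 higher. In the list of RB family, cyclin and CDK inhibitor genes, 4 of 22 were lower in both and 3 higher, or 3 to 7 and 1 to 6 with 1 array left out. E2f6, a repressor E2F gene, differed by -0.36 in GFP cells and -0.84 in Cre cells, and Cdkn2b, the gene of the CDK4/6 inhibitor p15, by -0.35 in GFP cells and -0.75 in Cre cells.

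Other lists leaned in opposite directions in the 2 genotypes. All 20 measured genes of cholesterol synthesis were negative in Cre cells, and 19 of 20 were positive in GFP cells, with medians of -0.62 and 0.30. Without GFP Recurred replicate 1 the GFP count was 10 of 20 and the median 0.07. With 1 Cre array left out, 19 or 20 of the 20 were negative in Cre cells. G1/S genes under E2F control had 33 of 40 positive in Cre cells and 8 of 40 in GFP cells, with 5 higher and 4 lower in both. These counts moved with single arrays, to 10 higher without GFP Recurred replicate 1 and 8 lower without Cre Recurred replicate 1, and the positive count ran from 4 to 13 in GFP cells and from 28 to 33 in Cre cells. Unfolded protein response genes were positive for 20 of 26 in GFP cells and 6 of 26 in Cre cells. Small leucine-rich proteoglycans, a matrix family that includes lumican, were positive for 13 of 15 and 4 of 15. Fibroblast markers were positive for 15 of 20 in GFP cells and 5 of 20 in Cre cells, with medians of 0.30 and -0.67. The GFP median was 0.03 with 11 of 20 positive without GFP Naïve replicate 2, and the Cre median was -0.23 without Cre Recurred replicate 1. The interaction with RB status passed the study's thresholds for 180 probe sets in limma and the stricter threshold for 0. Tnfrsf11b, the gene of the decoy receptor osteoprotegerin, differed by 2.39 in GFP cells and -2.12 in Cre cells, with an interaction adjusted p of 0.056.

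**Figure D4:**
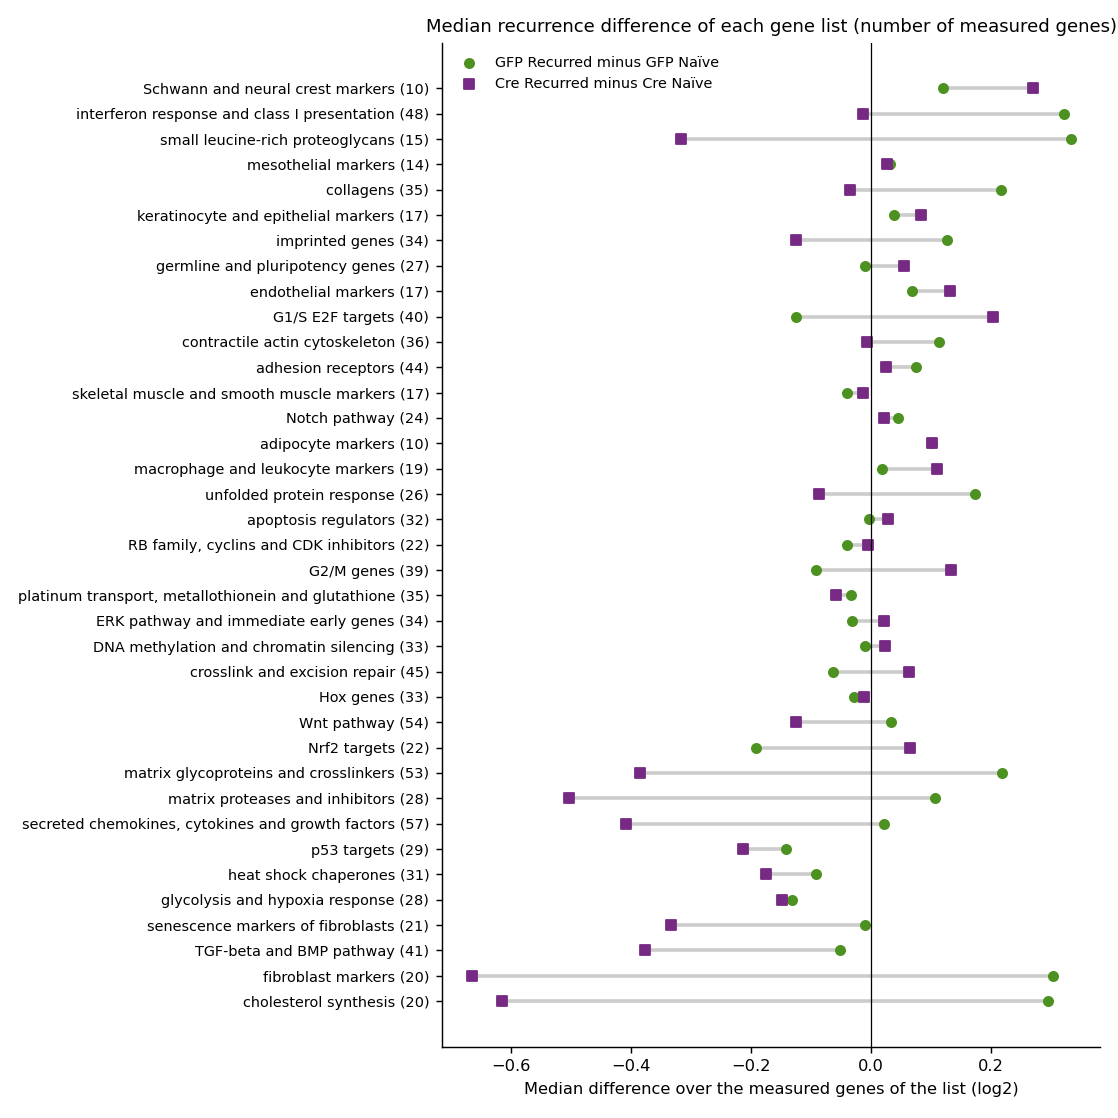
Median recurrence difference (log2) over the measured genes of each list in GFP cells (circles) and Cre cells (squares), ordered by the median of the joint difference, with the number of measured genes in parentheses. Both medians are negative for p53 targets, heat shock chaperones and the glycolysis and hypoxia list, and the 2 medians are far apart with opposite signs for cholesterol synthesis and fibroblast markers.

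Of the genes that the study assayed in these cells beyond Cdkn1a and Pla2g7, Mcm7 differed by 0.10 in GFP cells and 0.02 in Cre cells and Sfrp2 by -0.33 in GFP cells and -5.26 in Cre cells, the same sign in both genotypes. The signs were opposite for Ccnd1 with -0.41 in GFP cells and 0.67 in Cre cells, Ccna2 with -0.03 in GFP cells and 0.35 in Cre cells, Pcna with -0.08 in GFP cells and 0.22 in Cre cells, Sfrp1 with 0.95 in GFP cells and -5.75 in Cre cells, Lum with 1.34 in GFP cells and -6.31 in Cre cells, Clu with 0.80 in GFP cells and -2.93 in Cre cells and Gpr149 with -0.85 in GFP cells and 2.17 in Cre cells.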

How the data were processed

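RNA of 4 populations of MAFs had been measured on 8 Affymetrix arrays of the mouse genome. The authors deposited log2 signals made by RMA (named in the submitters' processing notes, version not given in the sources used here), which corrects background, normalizes quantiles and summarises the probes of a probe set. These log2 values were used as deposited. Depth has no meaning for arrays, and their number limits the precision.

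Of 45101 probe sets, 64 controls were left out and 45037 were tested. By the platform annotation 34945 carried 1 symbol, 932 several and 9160 none, giving 18193 genes, and 34741 probe sets were found in the GRCm38.p6 gene table. The brightest probe set of a gene stands for it unless another is named.

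The recurrence difference was fitted with limma 3.58.1 in R 4.3.3 (RB status and recurrence as terms, 5 residual and 2.80 prior degrees of freedom), with Benjamini-Hochberg adjusted p values over all probe sets. The study called changes with SAM, so a SAM-type statistic was run as an alternative. Others were a fit with 4 means, treat at 1.2-fold, a robust prior with a trend, median centring, cyclic loess, leaving out dim probe sets or those shared between transcripts, the replicate number as a block and leaving out each array. The scripts were tested on simulated data. Leaving out an array leaves its partner alone, and the fit then takes the spread of that population from the rest.

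The members and the gene lists were chosen with earlier results of these data known. Named genes are up to 12 higher and 12 lower genes of the shared rule, ordered by the smaller of the within-genotype differences, up to 4 genes per list with the smallest unadjusted p, Rb1 and the genes assayed in the study. The others (Ptx3, Lhx9, Meg3, Rgs4, Adcy3, Ptgir, Prkg1, Gata2, Pitx1, Rarb, Ddit4l, H1f10, Rbp4, Mapk13, Rcan2, Mmp16, Isg20, Nos1, Igfbp5, Tnfrsf11b, Als2cl and Dglucy) were named after their values were seen. Lists are given by counts and medians with no test. Figures were drawn with matplotlib 3.10.9.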

Additional observations from a re-analysis of the deposited data

Results flagged for a closer look

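Among the 4 naïve and the 4 recurred arrays of 73 genes followed through the alternatives, 146 sets of 4 in all, 4 held an array far from the other 3 by Dixon's criterion, which flags about 1 set in 20 by chance. Onecut2 was at 5.32 in Cre Recurred replicate 2 and between 4.52 and 4.60 in the other recurred arrays. Limch1, which encodes an actin-binding protein and differed by -1.27 in GFP cells and -1.18 in Cre cells, was at 4.67 in GFP Recurred replicate 1 and between 3.63 and 3.68 in the others. Lhx9 was at 3.35 in Cre Recurred replicate 1, with the others between 2.97 and 3.02. Mmp10 was at 7.73 in GFP Naïve replicate 1, with the others between 8.01 and 8.02.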

How the results depend on the processing

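No probe set passed the study's thresholds under the trended and robust prior, treat, median centring, cyclic loess, either filter or either replicate block. The fit with 4 means called 22 by the study's thresholds but 0 by the stricter adjusted p, and the SAM-type statistic called 1 by each. With 1 array left out the study's thresholds gave 0 to 6 and the stricter one 0. The 6 came without GFP Naïve replicate 2, and 2 of them were probe sets of Fst. The number of shared changes without overlap (110) was 116 after median centring, 126 after cyclic loess, 73 without dim probe sets, 83 without probe sets shared between transcripts, 827 at 1.2-fold and 28 at 2-fold in both genotypes. With 1 array left out it ran from 137 to 291, a range that rises by construction since fewer arrays must separate, with 291 without GFP Naïve replicate 2, 192 without Cre Naïve replicate 2 and 168 without Cre Recurred replicate 1. Of the 110, between 66 and 103 remained. The sign of the difference of 73 genes held under each of 18 alternatives in which the gene was tested, which was 57 of them without dim probe sets, 54 without probe sets shared between transcripts and all 73 otherwise. The other fits, the SAM-type statistic, treat, the replicate blocks and the filters leave the difference itself unchanged. A gene without overlap in either genotype also keeps its sign with 1 array left out. The sign could turn only under median centring, cyclic loess or, for genes with overlap, an array left out. The 5 gene values that newly passed the study's thresholds were those of Gata2, Rgs4, Rbp4 and Dnaja4 under 4 means and of Fst without GFP Naïve replicate 2.

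The labels give both replicates of each population the numbers 1 and 2, but the deviations of same-numbered arrays correlated between -0.25 and 0.31 across pairs of populations, so the numbers were not taken to pair them. With the number as a replicate block the count at the study's thresholds was 0, with a smallest adjusted p of 0.418, and with a replicate block within genotype it was 0 as well, at 0.874. The array count limits every value above.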
